A study of Dunaliella salina with 9 samples.

Results

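The abundant transcript clusters described here were at least 2-fold lower in every blue and every red library than in every white library of cultured Dunaliella salina. They numbered 45 of 115975 clusters in all, and of 1384 with a mean of at least 100 CPM over 9 libraries and at least 1 CPM in each (CPM, the count over the library total, times 1000000). Membership was set by the CPM values themselves: the lowest of the 3 white libraries had to be at least 2 times the highest of the 6 blue and red ones. Their lower level under blue and red is therefore how they were chosen and is given as a description only. The order of blue and red was not used to choose them, and the comparison of blue with red is tested below.

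Dunaliella salina is a unicellular green alga without a rigid cell wall that lives in salt water and is known for storing β-carotene in its plastid. In green algae, chlorophylls absorb mainly blue and red light, carotenoids absorb blue light, and blue light is also read by receptors such as phototropin. White light carries both bands, so that cells moved into a single band lose part of the spectrum they grew in. Per the series title, the study asked what red and blue light do to the transcriptome, with carotenoid synthesis in view.

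The light groups had 3 libraries each, made of total RNA from cells in mid-exponential growth: blue light of 450 nm, red light of 660 nm, and cool white light, each with 50 µmol photons per square metre and second. The same culture conditions are given for all groups: 22 °C under white fluorescent lamps with 14 h of light and 10 h of darkness. Cells were then spun down and put into fresh medium under the light tested. The design text calls the samples biological, but whether each came from a culture of its own, how long it stood under its light, and whether all lights share strain, date and batch are not stated in the labels, so a batch and the light cannot be told apart. If cultures were shared, p-values cover no more than the spread between these samples. White samples also stand for the light in which the cells had been grown, so a change of light and a narrow band cannot be told apart here.

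Total counts per library were between 16279167 and 24526786, and the lowest count of any of the 45 clusters in any library was 57.2. The median coefficient of variation of the 1339 other clusters of the same abundance was 4.70% in blue, 3.96% in red and 17.6% in white, so the white libraries were the least alike among themselves. The files pair no cluster with a gene name, and none of the 115975 identifiers matched the 16683 genes of the reference table for this species, so neither roles nor sequences are given. Clusters are called below by their rank in mean white CPM, and 6 of them by identifier. RNA came from whole cultures, in which fewer cells with a transcript and less of it per cell cannot be told apart.

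The 45 clusters held up to 9.89% of the counts of a white library. They took 0.546%, 0.820% and 1.01% of the counts in blue 1, 2 and 3, 0.504%, 0.518% and 0.535% in red 1, 2 and 3, and 5.50%, 9.89% and 9.05% in white 1, 2 and 3. The means were 0.792% ± 0.23 in blue, 0.519% ± 0.016 in red and 8.15% ± 2.3 in white (SD, n = 3 each). The white libraries lay above all others, as the choice of clusters fixes. Within the set, counts in white were concentrated in a few clusters. The 4 clusters ranked first in white took 0.227% ± 0.11 of the counts in blue, 0.0710% ± 0.0039 in red and 4.05% ± 1.9 in white, while the other 41 took 0.565% ± 0.12 in blue, 0.448% ± 0.013 in red and 4.10% ± 0.38 in white (SD, n = 3 each). White 1 stood apart through the first 4, with 1.84% of its counts against 5.52% in white 2 and 4.80% in white 3, and less through the other 41, with 3.66%, 4.37% and 4.26% in the same libraries.

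**Figure D1:**
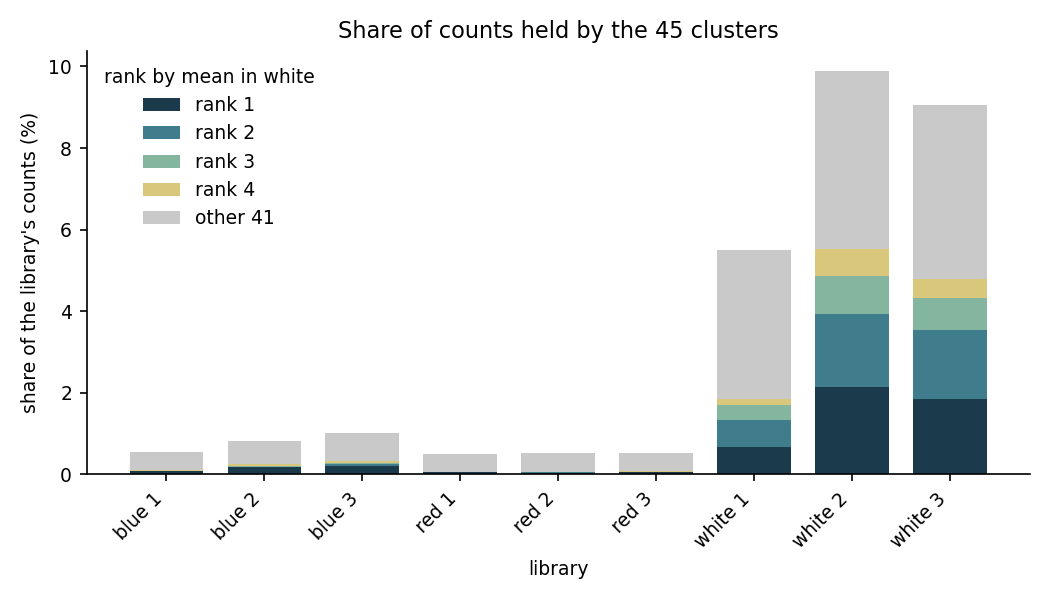
Share of each library's counts (%, vertical axis) held by the 45 clusters in 3 blue, 3 red and 3 white libraries, with the 4 clusters ranked first by mean CPM in white and the other 41 stacked. Blue and red libraries stay between 0.504% and 1.01%, and white ones reach 5.50% to 9.89%.

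Levels covered a wide range under each light. Mean CPM per cluster ran between 5.55 and 1626 in blue with a median of 113, between 2.96 and 560 in red with a median of 73.2, and between 225 and 15627 in white with a median of 804. The lowest white value was 2 to 3 times the highest blue or red value in 13 clusters, 3 to 5 times in 12, 5 to 10 times in 15 and at least 10 times in 5, with a median of 4.35 times. Clusters near the limit differed little from those just past it: the 2 members nearest to it had ratios of 2.01 (224 CPM in the highest blue or red library, against 449 CPM in the lowest white library) and 2.05, and the 2 clusters just outside had 1.98 (322 CPM in the highest blue or red library, against 638 CPM in the lowest white one) and 1.98 (2450 CPM, against 4840 CPM in white). On the mean level, the last member inside averaged 100.1 CPM over the 9 libraries and the first outside 99.4 CPM.

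**Figure D2:**
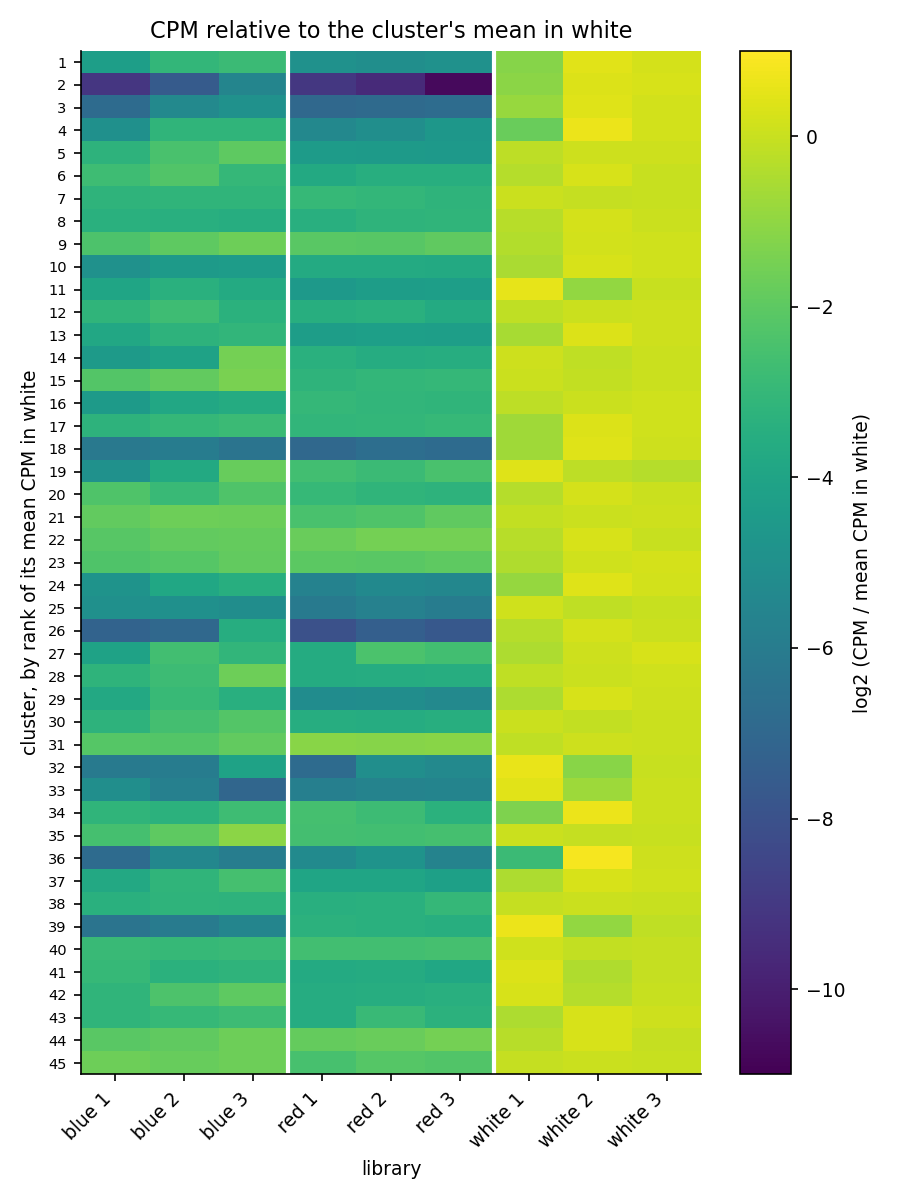
CPM of each of the 45 clusters (rows, by rank of the mean in white) in each library (columns), as log2 of the ratio to the cluster's own mean in white. Blue and red columns are low in every row by the way the clusters were chosen, and the depth of the fall differs between rows. Blue 3 is the highest blue library in 29 rows. In ranks 2, 14, 19, 26, 28 and 32 it is at least 2 times both blue 1 and blue 2.

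The cluster with the highest mean in white was Cluster-15686.47801, with an effective length of 273 bases. It had 815, 1863 and 2200 CPM in blue 1 to 3, 517, 472 and 515 CPM in red 1 to 3, and 6837, 21545 and 18498 CPM in white 1 to 3. White 1 was well below the other two, and the blue libraries all lay above the red ones. The means were 1626 ± 722 CPM in blue, 501 ± 25 in red and 15627 ± 7763 in white (SD, n = 3 each), and the white mean was 9.61 times the blue mean and 31.2 times the red mean.

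By the means, rank 2 (5656 bases) fell furthest of the 45 in both blue and red. It had 24.8, 71.8 and 299 CPM in blue 1 to 3, 25.7, 18.02 and 8.31 CPM in red 1 to 3, and 6437, 17805 and 16798 CPM in white 1 to 3. Blue 3 stood far above blue 1 and blue 2, and the white mean was 104 times the blue mean and 789 times the red mean. Rank 3 had 63.1, 169 and 230 CPM in blue, 57.3, 61.6 and 64.9 CPM in red, and 3863, 9215 and 7979 CPM in white. Rank 4 had 134, 477 and 464 CPM in blue, 99.9, 125 and 165 CPM in red, and 1251, 6619 and 4671 CPM in white. In all 4 of these clusters white 1 was lowest among the white libraries and blue 1 lowest among the blue ones.

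By the gap between single libraries, the deepest fall was in Cluster-15686.62997 (875 bases, rank 18). It had 15.1, 17.0 and 12.9 CPM in blue 1 to 3, 8.55, 10.7 and 9.54 CPM in red 1 to 3, and 644, 1438 and 1124 CPM in white 1 to 3. The lowest white library was 37.9 times the highest blue one, and the spread was small under both narrow bands. The cluster ranked 25 (2261 bases) came next, with 24.1, 23.7 and 21.8 CPM in blue, 11.1, 14.3 and 12.1 CPM in red, and 827, 688 and 746 CPM in white, a ratio of 28.5. Its 3 white libraries were close to each other.

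At the other end, some clusters settled at nearly the same level in all 6 blue and red libraries. The highest of those libraries was under 1.5 times the lowest in 7 clusters, ranked 7, 8, 17, 23, 38, 40 and 44. Rank 7 (2438 bases) was the most even, with 266, 272 and 275 CPM in blue, 318, 294 and 271 CPM in red, and 2505, 2374 and 2455 CPM in white. That is 15.6% of the 45, beside 60.6% of the 1339 other clusters of the same abundance, to which no limit on the blue and red values applied.

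In a fit of all clusters (edgeR's quasi-likelihood test with TMM scaling, all 9 libraries), all 45 passed an adjusted p of 0.05 as lower in blue than in white, where 14.7% of the 38376 clusters tested were called lower, and all 45 as lower in red than in white, where 16.9% were. The 45 all had enough counts to be tested. The median log2 difference over the 45 was -3.47 for blue minus white and -3.79 for red minus white, against 0.28 and 0.31 over all clusters tested. The choice used the same contrasts, so nothing is read from these counts, and both comparisons share the white libraries. Scaling by library totals alone, as in the choice, gave medians of -3.05 in blue and -3.50 in red over the 45, and 0.67 and 0.60 over all clusters.

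Each library was also left out in turn and the clusters were chosen again from the remaining 8, which gives values in a library that the choice had not seen. The libraries it was then compared with had taken part in that choice. The share that agreed is therefore partly fixed by the choice and is given as a description only. Without blue 3, 61 clusters were chosen and 46 of them (75.4%) were also at least 2-fold lower in blue 3 than in every white library. Of all clusters of that abundance, 8.39% were. The figures were 47 of 47 for blue 1, blue 2, red 1 and red 2, and 47 of 48 for red 3, against 6.10% to 10.9% of all clusters of that abundance. Without white 1, 55 clusters were chosen and 39 of them (70.9%) were at least 2-fold higher in white 1 than in every blue and red library, where 4.05% of all clusters of that abundance were. For white 2 it was 42 of 48 (against 4.98%) and for white 3 it was 42 of 42 (against 4.42%). Blue 3 and white 1 thus kept more clusters out of the set than any other library.

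Blue light was then compared with red light, whose order the choice did not use. The choice did cap the highest blue or red value at a level set by white, a limit that the other abundant clusters did not have. Of the 45 clusters, 4 were higher and 2 lower in blue than in red (edgeR, quasi-likelihood, p adjusted by Benjamini-Hochberg over all 38376 clusters, threshold 0.05). Over all clusters tested, 0.667% were called higher and 1.02% lower in blue, 1.69% in both directions together. Among the 1339 other clusters of the same abundance 3.51% were called higher and 12.2% lower, 15.7% together. The 45 had 13.3% called, a share near that of other abundant clusters. By direction, 8.89% of the 45 were called higher and 4.44% of the 45 lower in blue. The median log2 difference, blue minus red, was 0.43 over the 45, -0.09 over the other abundant clusters and -0.03 over all clusters tested. Of the 45, 27 (60%) had a positive difference, beside 42.5% of the other abundant clusters and 47.7% of all clusters tested. The median log2 CPM of the 45 with TMM scaling was 5.836, 6.293 and 6.955 in blue 1 to 3. In red 1 to 3 it was 5.951, 6.041 and 6.333, so blue 1 lay below every red library. The spread of this median between libraries of a light was 0.42, about as large as the difference. Without blue 3 the difference was 0.30.

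The largest difference in favour of blue among those called was in Cluster-15686.48014 (3844 bases, rank 5). It had 301, 527 and 745 CPM in blue 1 to 3, 138, 133 and 127 CPM in red 1 to 3, and 2500, 3121 and 3067 CPM in white 1 to 3. No blue library overlapped the red ones, and the blue libraries differed among themselves by 2.47-fold. The fitted log2 difference, blue minus red, was 1.89 ± 0.32 (SE, n = 3 each, edgeR adjusted p = 0.034). Cluster-15686.52785 (2292 bases, rank 29) followed, with 39.4, 71.5 and 50.3 CPM in blue, 14.9, 15.2 and 13.3 CPM in red, and 385, 652 and 568 CPM in white. Its log2 difference, blue minus red, was 1.78 ± 0.29 (SE, n = 3 each, edgeR adjusted p = 0.028), again with every blue library above every red one. In both clusters red was the light furthest below white.

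The clusters lower in blue were Cluster-15686.72535 (2685 bases, rank 39) and Cluster-15686.41772 (1486 bases, rank 31). The first had 4.08, 5.36 and 7.22 CPM in blue 1 to 3, 34.5, 32.4 and 31.0 CPM in red 1 to 3, and 531, 178 and 311 CPM in white 1 to 3. Its log2 difference, blue minus red, was -2.65 ± 0.36 (SE, n = 3 each, edgeR adjusted p = 0.014), and its mean in blue was 0.17 times that in red. The second had 110, 108 and 135 CPM in blue, 222, 218 and 224 CPM in red, and 449, 524 and 513 CPM in white. Its log2 difference was -1.02 ± 0.16 (SE, n = 3 each, edgeR adjusted p = 0.023). Both had red libraries that lay close together and clearly above the blue ones, so that red stood between blue and white in each of them.

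**Figure D3:**
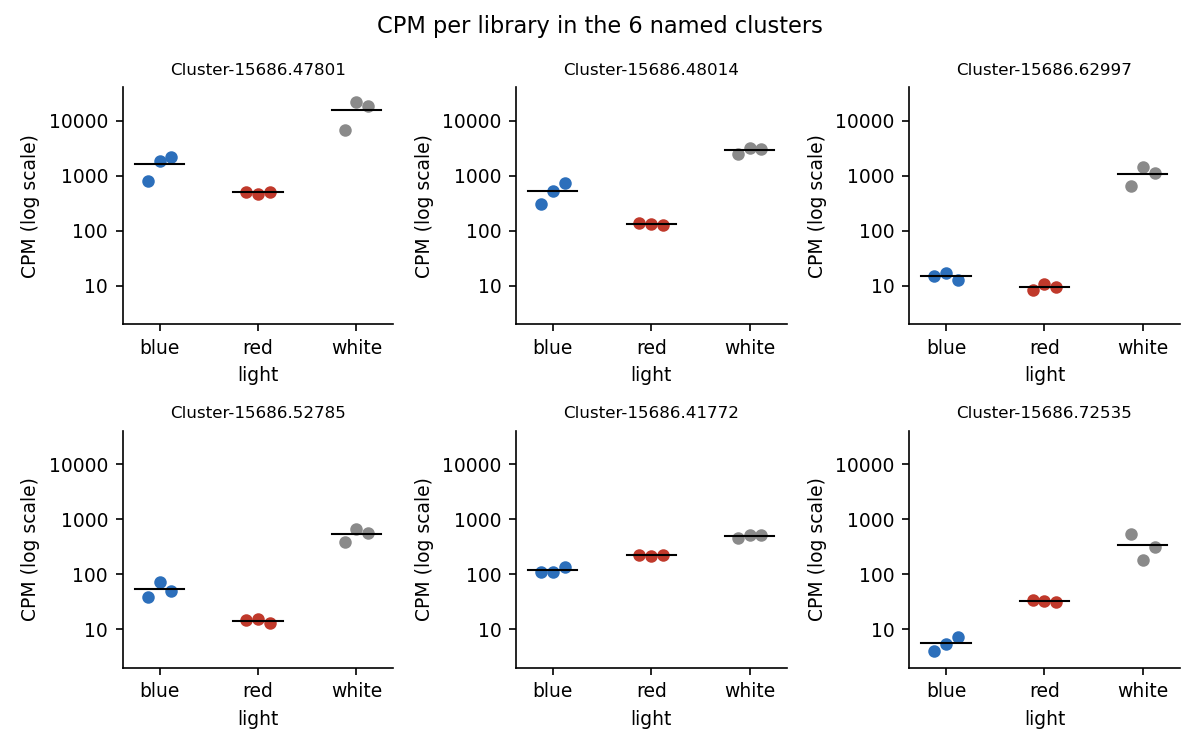
CPM (log scale) in each library of the 6 clusters named, by light, with 1 point per library and a line at the mean of 3. Red points lie closest together, Cluster-15686.41772 and Cluster-15686.72535 have blue below red, and the other 4 have blue above red.

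The other clusters called were ranks 15 and 25, both higher in blue. Rank 15 (871 bases) had 306, 396 and 534 CPM in blue, 160, 171 and 181 CPM in red, and 1489, 1358 and 1474 CPM in white (log2 difference 1.17 ± 0.20 SE, n = 3 each, edgeR adjusted p = 0.037). Rank 25, given above, differed by 0.79 ± 0.10 (SE, n = 3 each, edgeR adjusted p = 0.013), the smallest difference among those called and the one with the smallest error. Without a threshold on p, the libraries of blue and red did not overlap in unscaled CPM in 26 clusters. Blue was above red in 20 of them and below it in 6. The calls used TMM scaling, with factors of 1.087 to 1.162 in blue and 0.9994 to 1.075 in red. Unscaled CPM therefore leans towards blue beside the calls. Over all clusters tested 21.3% had blue above and 12.7% below without overlap, and among the other abundant clusters 40.2% and 36.8%. The 20 thus stood near the share of other abundant clusters and the 6, or 13.3%, below it.

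Larger fitted differences than those called were seen in ranks 2 and 26, with 2.86 ± 0.94 and 2.74 ± 0.98 (SE, n = 3 each), but neither passed the threshold (edgeR adjusted p = 0.25 and 0.30), and their blue libraries spread over 12.0-fold and 12.8-fold. Cluster-15686.47801 differed by 1.59 ± 0.51 (SE, n = 3 each, edgeR adjusted p = 0.24), and Cluster-15686.62997 by 0.53 ± 0.31 (adjusted p = 0.62), although the blue and red libraries did not overlap in either. Among clusters with blue below red, rank 16 differed by -0.94 ± 0.23 (SE, n = 3 each, edgeR adjusted p = 0.11), with 65.3, 101 and 116 CPM in blue, 178, 169 and 160 CPM in red, and 1242, 1489 and 1555 CPM in white. A p that misses the threshold does not show equal levels.

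**Figure D4:**
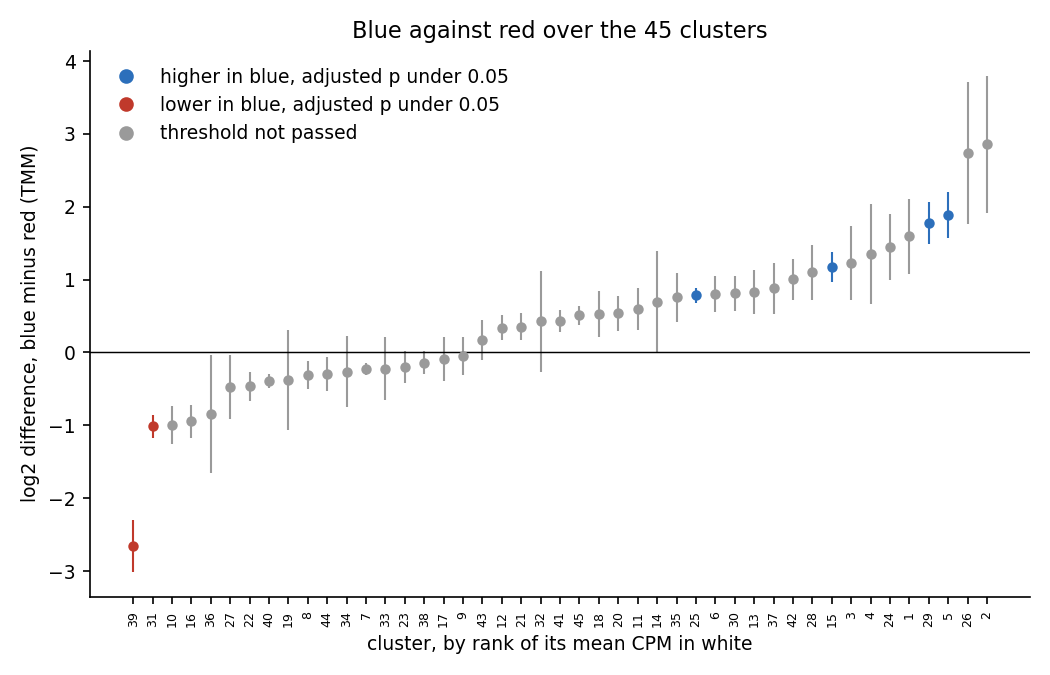
Fitted log2 difference, blue minus red (vertical axis), with its SE as a bar for each of the 45 clusters, ordered by the difference and labelled by rank in white. Of the clusters, 4 are called higher in blue and 2 lower, and ranks 2 and 26 have the largest values with the widest errors among the higher ones.

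How many clusters were called between blue and red depended on the libraries. There were 3 without blue 1, 2 without blue 3, 1 without red 2 and 2 without white 3 (edgeR). Of the other abundant clusters, 6.35%, 7.24%, 4.56% and 7.84% were called in the same fits, and of all clusters tested 0.288% to 0.554%. It was 0 without blue 2, red 1 or red 3, beside 4.56%, 5.08% and 4.78% of the other abundant clusters. At an unadjusted p under 0.05 it was 20, 17 and 18 of the 45 in these fits, beside 37.3%, 37.8% and 38.5% of the other abundant clusters. By adjusted p it was 7 without white 1, beside 28.7% of the other abundant clusters, and 6 without white 2, beside 25.2% of them. The counts over all clusters also moved, with 647 in the fit of all libraries, 129, 147 and 132 without blue 2, red 1 or red 3, and 1376 without white 1. With all libraries DESeq2 called 12 of the 45, beside 30.4% of the other abundant clusters, and limma-voom 4, beside 21% of them. No fitted difference of the 6 clusters changed sign in any of 17 alternatives. The 6 had been picked by their p in these same libraries, so a steady sign was largely fixed and supports nothing. Of the 17 alternatives, rank 25 was called in 11, ranks 15, 29, 31 and 39 in 10 each and rank 5 in 9.

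Blue libraries differed widely in many of the 45 clusters. The highest blue library was at least 2 times the lowest in 18 of the 45 (40%), against 39 of the 1339 other clusters of the same abundance (2.91%), and against 2.14% of 2760 other clusters whose mean in blue lay between 44.7 and 210 CPM, the interquartile range of the 45. The median of highest over lowest was 1.67 in blue for the 45, and 1.09 for the other abundant clusters. In red the same ratio was 1.17 for the 45, with 3 clusters (6.67%) at 2 or more, and 1.08 for the other abundant clusters, with 0.448% at 2 or more. In white it was 1.56 for the 45, with 13 clusters at 2 or more, and 1.42 for the other abundant clusters, with 23.4% at 2 or more. Over all clusters tested, whose median level was only 2.58 CPM, 34.6% were at 2 or more in blue, 33.0% in red and 60% in white. These counts describe the lists and were not tested.

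**Figure D5:**
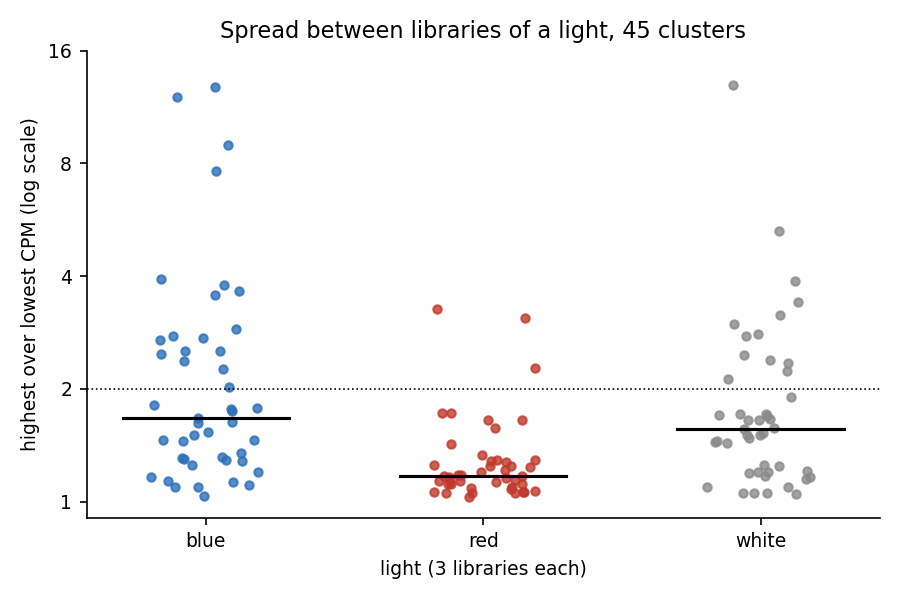
Highest over lowest CPM among the 3 libraries of each light (log scale), with 1 point for each of the 45 clusters, a solid line at the median and a dotted line at 2. The medians are 1.67 in blue, 1.17 in red and 1.56 in white, and 18, 3 and 13 clusters reach 2 or more.

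Most of the clusters leaned the same way among the blue libraries. Blue 1 was the lowest blue library in 33 of the 45 (73.3%), against 28.2% of the other abundant clusters, and blue 3 the highest in 29 (64.4%), against 34.3%. In 6 clusters blue 3 was at least 2 times both other blue libraries, which held for 1.34% of the other abundant clusters. These were ranks 2, 14, 19, 26, 28 and 32. Rank 26 (6443 bases) had 4.17, 4.85 and 53.2 CPM in blue 1 to 3, 2.33, 3.67 and 2.88 CPM in red 1 to 3, and 484, 697 and 628 CPM in white 1 to 3. Rank 14 (2301 bases) had 71.4, 93.0 and 546 CPM in blue, 149, 131 and 138 CPM in red, and 1666, 1399 and 1624 CPM in white. Rank 19 (1761 bases) had 30.5, 70.8 and 273 CPM in blue, 152, 134 and 172 CPM in red, and 1239, 813 and 750 CPM in white. In ranks 14 and 19 the red libraries lay above blue 1 and blue 2 and below blue 3. The blue mean of rank 14 was above the red mean through blue 3, while that of rank 19 was below the red mean with all 3 blue libraries.

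The white libraries differed in 2 directions. White 2 was at least 2 times white 1 in 9 clusters (20%), among them the first 4, against 1.12% of the other abundant clusters. White 1 was at least 2 times white 2 in 4 clusters (8.89%), ranks 11, 32, 33 and 39, against 22.0% of the other abundant clusters. The widest case was rank 36 (1643 bases), with 3.43, 8.65 and 6.36 CPM in blue, 9.96, 13.3 and 7.70 CPM in red, and 52.7, 682 and 400 CPM in white. White 3 lay between white 1 and white 2 in 37 of the 45, and in 1204 of the 1339 other abundant clusters, so this order is not particular to the 45.

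The median effective length was 1486 bases (13 to 6443) for the 45 clusters and 1866 bases for the other clusters of their abundance. Of the 45, 6 (13.3%) were under 300 bases, ranks 1, 3, 4, 30, 42 and 44, against 1.34% of the other abundant clusters. Ranks 3, 4 and 42 had effective lengths of 47, 13 and 53 bases, at which a level per length is not reliable: the length implied by count and FPKM for rank 4 varied between 9.75 and 18.1 bases over the libraries. Per length, rank 4 alone took 2.06% ± 0.94 of all FPKM in blue, 1.01% ± 0.17 in red and 18.2% ± 9.3 in white (SD, n = 3 each). Among clusters of at least 300 bases, the 39 members of that length took 0.755% ± 0.14 of the FPKM in blue, 0.655% ± 0.020 in red and 4.81% ± 0.57 in white. Any subset of the 45 has a higher share in white by the way they were chosen.

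Many counts of these clusters were not whole, which can happen when a read that fits more than 1 cluster is shared out. Of their counts 76.8% were not whole, against 61.2% for the other abundant clusters. In 10 of the 45 (22.2%) all 9 counts were whole, beside 33.9% of the other abundant clusters. These were ranks 9, 12, 13, 15, 16, 23, 30, 31, 35 and 42, so that Cluster-15686.41772 (rank 31) and rank 15 differed between blue and red in whole counts. Whether reads of the other 35 were divided differently between libraries was not tested. All 45 identifiers start with the same number, as do all 1339 of the other abundant clusters. By the mirrored rule, 61 clusters of the same abundance were at least 2-fold higher in every blue and red library than in every white one.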

How the data were processed

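Total RNA of 9 samples was sequenced, and the libraries were made from 1.5 µg RNA each, per the labels' protocols. The deposited estimated counts per transcript cluster are not scaled; 21.6% to 33.9% of them in a library are not whole. The deposited FPKM values scale with the count over effective length and library total, as a check of the values showed. They served here to derive lengths (median over libraries with at least 50 counts) and shares of FPKM. Aligner, counter, assembly and annotation are not given in the sources used here; DESeq 1.10.1 is named in the submitters' processing notes.

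CPM is the count over the library total, unscaled. Counts were rounded to whole numbers, filtered with filterByExpr (minimum count 10, total 15; 38376 clusters, at least 99.0% of counts) and scaled by TMM. The fit was edgeR's (version 4.0.16, R 4.3.3; robust glmQLFit and glmQLFTest), with light as the only term. The SE is the log2 difference over the square root of its F statistic. The code was tested on simulated data. Alternatives were RLE factors, library totals, DESeq2 1.42.0, limma 3.58.1 (voom), no filter, a mean of 10 CPM, a fit of 2 lights, the replicate number as a block and leaving out each library.

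The clusters and lists were chosen with earlier results of these data known. Named were the cluster highest in white, the one with the largest ratio of lowest white to highest other CPM, and, among clusters called in blue against red whose libraries do not overlap, the 2 largest differences in each direction. Ranks were picked as examples after their values were seen. No molecular identifiers are mentioned in the labels.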

Additional observations from a re-analysis of the deposited data

Results flagged for a closer look

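The difference from white was not the same in blue and in red for 6 of the 45 clusters, by the test of blue against red (edgeR, quasi-likelihood, p adjusted over all clusters, 3 libraries per light): ranks 5, 15, 25 and 29 stood higher in blue and ranks 31 and 39 lower. Every blue library lay on 1 side of every red one in each of the 6. The 6 are 13.3% of the 45, near the 15.7% called among other clusters of the same abundance (1.69% of all clusters tested).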

How the results depend on the processing

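Between blue and red, the 6 clusters called became 12 with DESeq2, 15 in a fit of the blue and red libraries alone, 1 with the replicate block and 0 to 7 with 1 library left out; RLE factors (6), library totals (7), limma-voom (4), no filter (5) and a mean of 10 CPM (9) stayed within 1.5 times. Calls over all clusters were 647 in the reported fit, 2400 with DESeq2, 3894 in the fit of the 2 lights and 194 with the replicate block. Of the other abundant clusters, 15.7% were called in the reported fit and 30.4% with DESeq2. It was 48.9% in the fit of the 2 lights and 7.99% with the replicate block. RLE factors gave 13%, library totals 20.5%, limma-voom 21%, no filter 14.3% and a mean of 10 CPM 27.7%. With 1 library left out it was 4.56% to 28.7%. The counts over the 45 are to be read beside these shares. The replicate numbers share no stated source, so the block is a check and not a stated pairing. Libraries with the same number correlated at 0.0053 to 0.066 in their deviations, and the same number correlated best in 14 of 18 cases. Whether libraries of the same number share a source was not tested. Against white, all alternatives called 43 to 45 of the 45, with 1 cluster left without an adjusted p by DESeq2. The number of clusters chosen, 45, was 72 at 1.5-fold, 74 at a mean of 50 CPM, 66 with TMM- or RLE-scaled CPM (all 45 among them), 32 at 3-fold, 31 at a mean of 200 CPM, 54 with no minimum per library, and 42 to 61 with 1 library left out. The share of counts became 3.52% of FPKM in blue, 1.80% in red and 32.9% in white; among clusters of at least 300 bases, added after seeing the data, 0.655% in red and 4.81% in white; and 0.469% in red without the cluster highest in white. The median difference of blue from red, 0.43 in the reported fit, was 0.30 to 0.59 in the alternatives tried for it. It moved by less than the spread between libraries, 0.42 on the log2 scale, in each of them. That spread is about as large as the difference itself, so staying within it does not show a steady difference. The causes of these shifts were not tested, except that looser or stricter rules choose more or fewer clusters by construction. With 3 libraries per light and a wide spread in white and blue, small differences may not have been detectable.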
